A study of Mus musculus with 92 samples.

Results

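The 9 genes described here are parts of the JAK-STAT pathway and its feedback loop: the kinases Jak1, Jak2 and Tyk2, the transcription factors Stat2, Stat3 and Irf9, and the inhibitors Socs1, Socs3 and Cish. They were chosen by function, as targets of baricitinib, STAT factors and feedback genes, from 29956 named genes, and all 9 are in the table. The study made mouse macrophages from bone marrow or from ER-Hoxb8 progenitors, knocked out Adar1 in the latter with guide RNAs, and treated some of the cells with baricitinib, an inhibitor of JAK1 and JAK2. Bulk RNA was sequenced from 92 libraries in 25 groups, and replicates of the baricitinib experiment are described as independently differentiated.

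ER-Hoxb8 cells are myeloid progenitors held in division by an estrogen-dependent Hoxb8, here in 0.0005 mM beta-estradiol and 10 ng/mL GM-CSF, and they become macrophages over 7 days in 30 ng/mL M-CSF without estradiol. The baricitinib libraries come from Adar1 KO cells made with sgRNA 1 and cells with a non-targeting control guide (NTC), sampled at day 7 after 0, 0.0006, 0.016, 0.4 or 10 uM of drug given at each change of medium. The doses are those of the sample labels; the treatment protocol gives 0.00064 and 0.16 uM where the labels give 0.0006 and 0.016 uM. Progenitors and macrophages with the NTC guide, with that same sgRNA 1 or with sgRNA 2 against Adar1, all made by transducing Cas9-heterozygous ER-Hoxb8 cells, come from other sequencing runs without drug. Bone marrow (BM) progenitors, BM monocytes and bone marrow-derived (BMD) macrophages are from wild-type FVB mice, and the untransduced ER-Hoxb8 progenitors, day 4 cells and macrophages are from FVB mice with Cas9. Cells taken from brain are microglia of wild-type FVB mice without injection and the microglia-like cells (MLCs) that BMD or ER-Hoxb8 donors form in Csf1r-deficient hosts. NTC and each Adar1 guide are a transduced line each, so guide, editing and the history of the line cannot be told apart, and replicates of a line are not separate mice.

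Cytokine receptors use JAK1, JAK2 and TYK2 to phosphorylate STAT proteins. Type I interferon acts through JAK1 and TYK2, and the complex that carries its signal to the nucleus holds STAT2 and IRF9, whose own genes are interferon-stimulated. GM-CSF signals through JAK2, while SOCS1, SOCS3 and CISH are induced by STATs and shut receptors and kinases off again. Loss of ADAR1 leaves double-stranded RNA unedited and can raise interferon production.

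Values are log2 CPM, counts scaled to library size, and libraries are compared only inside groups of columns that share their lowest value. There are 6 such sets: 33 baricitinib libraries (lowest value -2.78), 27 of in vitro macrophages and brain cells (-3.62), 12 of marrow and early ER-Hoxb8 cells (-4.34), 11 of NTC and sgRNA 1 cells (-3.43), 8 of sgRNA 2 cells (-3.56), and NTC macrophage replicate 2 alone (-3.09). Estimated depth had a median of 13, 24.8, 44.6, 25.8 and 24.3 M counts in the first 5 sets, so weak genes are harder to see among the baricitinib libraries. NTC macrophage replicate 2 is in no test. Jak1, Jak2, Stat2, Stat3, Irf9 and Socs3 passed the low-value filter in every fit. Tyk2 passed in all but the sgRNA 2 cells, Cish in all but the baricitinib libraries, and Socs1 only among in vitro macrophages and brain cells, where the group with high Socs1 is what let it pass, so a difference there was to be found.

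Several libraries stand apart from their replicates. Adar1 KO 0.4 uM replicate 2 had interferon-stimulated genes far above the other libraries of its group, with Ifit1 at 11.78 beside 0.54 and 3.03. ER-Hoxb8 progenitor replicate 2 resembled day 4 cells, with Csf1r at 10.45 beside 7.75 and 3.10 and Cish at -0.36 beside 7.50 and 6.76. BMD MLC replicate 3 had low Stat2 (1.24), and microglia replicate 8 had low Socs3 (-1.66). Microglia replicate 8 also had the fewest genes above the lowest value in its group (12879). The library names of microglia replicates 8 and 9 start with YSWT and those of the others with WT, which the labels do not explain. Results that change without such a library are given both ways. In bulk RNA, fewer cells of a kind and less RNA per cell cannot be told apart.

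Without drug, Adar itself was not lower in the edited cells. It was 7.42, 6.52 and 6.37 in Adar1 KO and 5.12, 4.94 and 4.69 in NTC, so the mRNA level does not check the edit, and editing was not analysed here. At 10 uM it was 1.55, 2.15, 2.91 and 2.03 in Adar1 KO and 3.70, 3.64 and 3.22 in NTC. At 0.0006 uM Adar1 KO held 5.90, 5.94 and 6.21 and NTC 4.66, 5.04 and 4.81, and at 0.016 uM 6.25, 5.90 and 6.37 against 4.31, 4.58, 4.40 and 4.34. At 0.4 uM the values were 4.12, 7.38 and 4.21 in Adar1 KO and 4.50, 4.22, 4.29 and 3.92 in NTC. Adar, an interferon-stimulated gene, was thus above NTC in each Adar1 KO library up to 0.016 uM and below it in each at 10 uM.

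In the other sets Adar was 4.20, 3.42 and 4.28 in NTC progenitors, 4.36, 4.23 and 4.24 with sgRNA 1 and 4.35, 4.56 and 4.36 with sgRNA 2. Macrophages held 5.73 and 5.67 in NTC (replicate 2, in its own set, 5.86), 6.96, 7.15 and 7.01 with sgRNA 1, and 7.02, 7.00, 7.02, 7.03 and 6.99 with sgRNA 2. The sgRNA 1 macrophages were thus all above the NTC macrophages of their set. Marrow cells gave 5.36, 5.11 and 5.63 in BM progenitors and 6.32, 6.21 and 5.56 in monocytes, with 4.69, 5.81 and 5.10 in ER-Hoxb8 progenitors and 5.69, 5.56 and 5.28 at day 4. BMD macrophages held 5.72, 5.56 and 6.29, ER-Hoxb8 macrophages 5.83, 5.97 and 4.37. From lowest through median to highest, BMD MLCs held 3.24, 4.73 and 5.74, ER-Hoxb8 MLCs 4.11, 5.19 and 6.08, and microglia 0.87, 3.43 and 5.63.

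Macrophage markers were found in all groups named macrophages. Of 7 macrophage markers, 6 are in the table, and all 6 were above 3 counts in every library, with Cd68 the most abundant by CPM in most macrophage groups. Their sum was 7880 to 8520 CPM in untreated Adar1 KO cells and 4930 to 6250 CPM at 10 uM, and 7900 to 8210 and 6240 to 6690 CPM in NTC, so all 6 remained present at a lower sum. The sum of 3 monocyte markers was 354 to 471 CPM untreated and 110 to 156 CPM at 10 uM in Adar1 KO, with 273 to 326 and 112 to 138 CPM in NTC, and without drug in the other sequencing it was 410 to 1140 CPM in sgRNA 1 and 233 to 288 CPM in NTC macrophages. In the same comparison the macrophage sum was lower with sgRNA 1 (7950 to 8920 against 11200 to 12800 CPM) and the neutrophil sum higher (68.7 to 82.1 against 10.8 to 15.5 CPM). Endothelial markers were higher with sgRNA 1 (101 to 141 against 37.2 to 48.1 CPM). Oligodendrocyte markers, led by Mbp, were lower (21.0 to 28.5 against 56.8 to 58.9 CPM), as in the untreated baricitinib libraries (23.5 to 32.2 in Adar1 KO against 49.8 to 61.4 CPM in NTC). The sum of 4 progenitor markers was small but higher with drug in Adar1 KO, at 10.8 to 14.3 CPM with 10 uM beside 1.54 to 3.33 CPM untreated, led by Cd34, while Kit was at the lowest value in all libraries at 10 uM. Among brain cells the macrophage sum was 3330 to 8020 CPM in ER-Hoxb8 MLCs, 7570 to 9990 in BMD MLCs and 5400 to 24100 in microglia. Neutrophil genes, led by Ngp, ran from 4100 through a median of 28800 to 31800 CPM in BMD MLCs, from 230 through 2000 to 40400 in ER-Hoxb8 MLCs and from 404 through 1910 to 5760 in microglia, so the groups differ in other myeloid RNA. Monocyte markers gave 102 to 6740 CPM in ER-Hoxb8 MLCs, 190 to 512 in BMD MLCs and 12.6 to 85.9 in microglia, and endothelial markers 44.4 to 90.6, 10.6 to 28.2 and 32 to 68.1 CPM. NTC and sgRNA 1 progenitors carried hemoglobin Hba-a1 and neuronal Snap25, at sums of 154 to 251 and 4.68 to 13 CPM in NTC for their lists.

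In macrophages without drug, loss of Adar1 went with more RNA for the nuclear end of the interferon pathway. Stat2 was 7.79, 7.74 and 7.67 in Adar1 KO and 5.24, 4.79 and 4.80 in NTC, and Irf9 was 7.44, 7.53 and 7.67 against 6.28, 6.17 and 6.27. Every Adar1 KO library lay above every NTC library for both genes. Stat2 differed by a log2 fold change of 2.79 (limma, adjusted p = 0.00372) and Irf9 by 1.31 (adjusted p = 0.02), which made 2 of 7 members tested, beside 25.3% of all 11152 genes tested. The median over the 7 was 0.71, beside -0.02 over all genes. That median is the value of Tyk2 (95% interval -3.52 to 4.93), and without Tyk2 it lies between 0.62 and 0.94. Irf9 kept its size, but its adjusted p was above 0.05 without NTC 0 uM replicate 2 (1.27, adjusted p = 0.0589) or Adar1 KO 0 uM replicate 3 (1.25, adjusted p = 0.0559).

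No kinase was called in this comparison. Jak1, the kinase shared by most of these receptors, was 6.80, 6.91 and 6.98 in Adar1 KO and 7.40, 6.59 and 6.81 in NTC, and the groups overlapped. Jak2 was 3.74, 3.80 and 3.91 against 2.92, 3.27 and 3.39, so all Adar1 KO libraries were above all NTC libraries, yet the difference of 0.62 (95% interval -0.19 to 1.44) had an adjusted p of 0.269 by limma. Without Adar1 KO 0.4 uM replicate 2, which is in neither group but widens the variance, the adjusted p for Jak2 was 0.00734. Stat3, the factor for IL-6 and IL-10 family signals, was 7.01, 7.39 and 7.30 against 7.27, 6.24 and 6.62, a difference of 0.52 (0.01 to 1.03, adjusted p = 0.129) that became 0.80 (adjusted p = 0.0253) without NTC 0 uM replicate 1. With other libraries left out the Stat3 difference was as low as 0.29 and not called. Tyk2 was at the lowest value in 2 of 3 libraries of each line, with 1.80 and -0.32 in the remaining libraries.

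**Figure D1:**
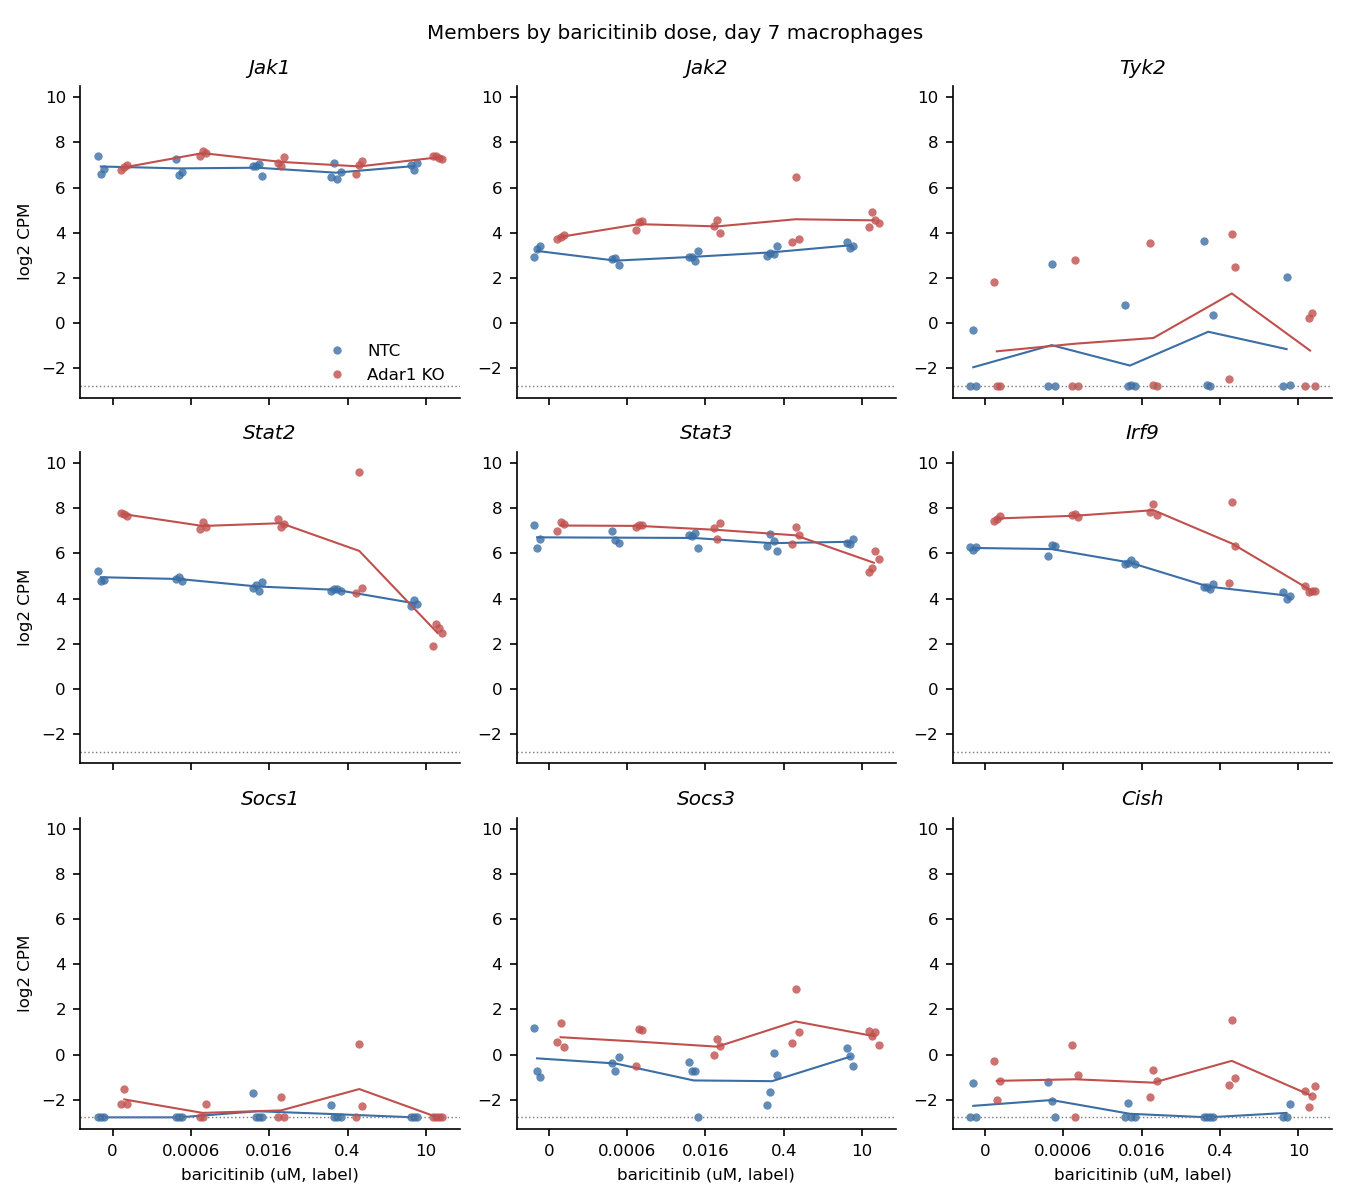
The 9 genes by baricitinib dose in Adar1 KO and NTC macrophages, in log2 CPM, with each point a library and the lowest value of the set marked. Stat2 and Irf9 are low at 10 uM in each line, and Adar1 KO replicate 2 at 0.4 uM stands away from its group.

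Baricitinib brought Stat2 and Irf9 down in Adar1 KO macrophages, with low values in every library at the top dose. Stat2 in Adar1 KO was 7.06, 7.39 and 7.19 at 0.0006 uM, 7.52, 7.18 and 7.31 at 0.016 uM, 4.23, 9.62 and 4.47 at 0.4 uM, and 1.88, 2.85, 2.68 and 2.47 at 10 uM. Irf9 was 7.68, 7.73 and 7.59, then 7.85, 8.17 and 7.72, then 4.70, 8.28 and 6.34, and at 10 uM 4.56, 4.28, 4.35 and 4.35. Each library at 10 uM was below each untreated library for both genes, while the 0.4 uM group was split by replicate 2. Stat2 was also below all untreated libraries at 0.0006 uM (-0.52) and 0.016 uM (-0.4). Irf9 was above all of them at 0.016 uM (0.36). None of these smaller differences was called. At 10 uM Stat2 fell by 5.26 (log2 fold change -5.26, limma, adjusted p = 6.21e-08) and Irf9 by 3.17 (-3.17, adjusted p = 5.18e-08). Stat3, at 5.18, 5.33, 6.09 and 5.74 with 10 uM, was also below all untreated libraries and fell by 1.65 (-1.65, adjusted p = 6.11e-07).

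By dose in Adar1 KO, the members with an adjusted p below 0.05 against 0 uM were 0 of 7 at 0.0006 uM, 0 of 7 at 0.016 uM, 1 of 7 at 0.4 uM and 4 of 7 at 10 uM by limma. Among all genes the shares were 2.34%, 6.21%, 26.6% and 65.8%, and at an unadjusted p below 0.05 the members with no call numbered 1 at 0.0006 uM and 0 at 0.016 uM. At 10 uM a change was thus the common state of any gene. The call at 0.4 uM was Irf9 (-1.11, adjusted p = 0.0478), with Stat2 at -1.62 (95% interval -3.05 to -0.20, adjusted p = 0.0852). Without replicate 2 the drop at 0.4 uM was larger, -2.03 for Irf9 (adjusted p = 1.8e-07) and -3.38 for Stat2 (adjusted p = 1.55e-13). With any other compared library left out Stat2 was not called, and its drop was as small as -0.69. The other libraries of the comparison mattered as well, since Irf9 gave -1.16, -1.12 and -1.05 (adjusted p = 0.0946, 0.094 and 0.104) without Adar1 KO 0 uM replicate 1, 2 or 3, -0.24 (0.585) without 0.4 uM replicate 1 and -1.06 (0.115) without 0.4 uM replicate 3. The Irf9 call was also lost with no filter, with the replicate block and with only the groups compared (-1.11 each, adjusted p = 0.0861, 0.0505 and 0.445).

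Jak1 and Jak2, the enzymes the drug binds, did not lose RNA with dose in Adar1 KO. Jak1 was 7.41, 7.64 and 7.53 at 0.0006 uM, 7.10, 6.94 and 7.37 at 0.016 uM, 6.61, 7.02 and 7.18 at 0.4 uM, and 7.41, 7.39, 7.30 and 7.25 at 10 uM. Jak2 was 4.12, 4.49 and 4.53, then 4.30, 4.55 and 3.99, then 3.61, 6.46 and 3.72, and 4.27, 4.91, 4.57 and 4.44 at 10 uM. All libraries at 10 uM were above all untreated libraries for both kinases. Jak1 was higher by 0.44 at 10 uM (limma, adjusted p = 0.0382), a call lost without any of 6 of the 7 libraries: 0.39, 0.45 and 0.48 (adjusted p = 0.114, 0.0704 and 0.0508) without 0 uM replicate 1, 2 or 3, and 0.42, 0.43 and 0.46 (0.0718, 0.0694 and 0.0503) without 10 uM replicate 1, 2 or 3. It was lost as well with no filter (0.44, adjusted p = 0.0647) and after quantile normalization (0.40, adjusted p = 0.0601). At 0.0006 uM Jak1 differed by 0.63 (95% interval 0.22 to 1.04, adjusted p = 0.0917).

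Jak2 at 10 uM differed by 0.73 from 0 uM in Adar1 KO (-0.03 to 1.5, limma, adjusted p = 0.0842), and without Adar1 KO 0.4 uM replicate 2 by the same 0.73 with an adjusted p of 0.000283. At 0.4 uM the Jak2 mean rests on that replicate, with a difference of 0.78 (-0.03 to 1.59, adjusted p = 0.153) that was -0.15 without it, 1.27 (adjusted p = 0.0223) without replicate 1 and 1.22 (adjusted p = 0.0358) without replicate 3. Tyk2, the interferon receptor kinase, was erratic in the baricitinib libraries, where 14 of 33 were at the lowest value and others reached 3.94. In Adar1 KO it was 1.80, -2.78 and -2.78 at 0 uM and -2.78, 0.23, 0.45 and -2.78 at 10 uM, so high and low libraries occurred in each group. The difference for Tyk2 at 10 uM was 0.03 with a 95% interval of -3.92 to 3.98, too wide to place its level.

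NTC macrophages lost Irf9 with dose as well. Irf9 in NTC was 5.90, 6.36 and 6.31 at 0.0006 uM, 5.54, 5.58, 5.71 and 5.54 at 0.016 uM, 4.52, 4.52, 4.42 and 4.66 at 0.4 uM, and 4.30, 3.98 and 4.12 at 10 uM. From 0.016 uM upward no NTC library reached the untreated range of 6.17 to 6.28, and the mean was lower at each further step. Irf9 fell by 2.10 at 10 uM (-2.10, limma, adjusted p = 0.00127), the only member called there (1 of 7, beside 13.8% of all genes). At 0.4 uM it differed by -1.71 (95% interval -2.50 to -0.92, adjusted p = 0.144), and without Adar1 KO 0.4 uM replicate 2 the adjusted p was 4.74e-06.

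Stat2 in NTC was 4.85, 4.96 and 4.78 at 0.0006 uM, 4.48, 4.59, 4.35 and 4.71 at 0.016 uM, 4.35, 4.44, 4.41 and 4.34 at 0.4 uM and 3.65, 3.95 and 3.77 at 10 uM. All libraries from 0.016 uM upward were below the untreated libraries. The difference at 10 uM was -1.15 (-2.58 to 0.27, limma, adjusted p = 0.289), and without Adar1 KO 0.4 uM replicate 2 the same -1.15 had an adjusted p of 1.92e-05. Stat3 at 10 uM in NTC was 6.48, 6.43 and 6.63, within the untreated range (-0.20, -0.71 to 0.31, adjusted p = 0.653). Jak1 at 7.01, 6.76 and 7.09 overlapped the untreated libraries (0.02, -0.39 to 0.43), as did Jak2 at 3.58, 3.33 and 3.42 (0.25, -0.57 to 1.06). In NTC the members called by limma were 0 of 7 at 0.0006, 0.016 and 0.4 uM (0, 0 and 1 at an unadjusted p below 0.05), beside 0%, 0% and 0.00897% of all genes.

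The effect of 10 uM was greater in Adar1 KO than in NTC for Stat2 and Stat3. A test of the difference between the lines in the effect of the drug gave -4.11 for Stat2 (95% interval -6.06 to -2.16, limma, adjusted p = 0.00122) and -1.45 for Stat3 (-2.15 to -0.75, adjusted p = 0.00143). They were 2 of 7 members, beside 39.5% of all genes, with a median over the 7 of -0.77 beside 0.06 over all genes. That median is the value of Tyk2, which varied widely between replicates, and without Tyk2 it lies between -1.06 and -0.03. Irf9 gave -1.06 (-2.22 to 0.10, adjusted p = 0.139), and -1.06 with an adjusted p of 0.00484 without Adar1 KO 0.4 uM replicate 2. Jak1, Jak2, Tyk2 and Socs3 had no call in this test. The untreated Adar1 KO cells started higher for Stat2 and Irf9, and whether the drop depends on the starting level was not tested.

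With drug present, some members were called between the lines at every dose, but not the same members or always in the same direction. The share of members called was above that of all genes at the lower doses and below it at the top dose. At 0.0006 uM the lines differed in 4 of 7 members (29% of all genes) and at 0.016 uM in 3 of 7 (32.2%), all higher in Adar1 KO. Stat2 was higher by 2.35 (limma, adjusted p = 0.0115) and 2.80 (adjusted p = 0.00135) at these doses, and Irf9 by 1.48 (adjusted p = 0.00784) and 2.32 (adjusted p = 3.4e-05). Jak2 was higher by 1.62 (adjusted p = 0.00269) and 1.34 (adjusted p = 0.00613), with no overlap between the lines. Jak1 was higher by 0.68 at 0.0006 uM (adjusted p = 0.0112), but by 0.54 (adjusted p = 0.0787) and 0.60 (adjusted p = 0.0535) without NTC 0.0006 uM replicate 2 or 3. Socs3 at 0.016 uM differed by 1.5 (0.23 to 2.76, adjusted p = 0.0638), by 1.76 (adjusted p = 0.0428) without NTC 0.016 uM replicate 1, and by 1.5 (adjusted p = 0.0391) without Adar1 KO 0.4 uM replicate 2. With other compared libraries left out the Socs3 difference was as low as 0.95 and not called.

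At 0.4 uM the lines differed in 3 of 7 members by limma (13.5% of all genes), and much of that came from Adar1 KO replicate 2. With it, Jak2 was higher by 1.46 (adjusted p = 0.00954), Irf9 by 1.91 (adjusted p = 0.00135) and Socs3 by 2.65 (adjusted p = 0.00499). Without it Irf9 was still higher, by 0.99 (adjusted p = 0.00607), while Jak2 gave 0.53 (adjusted p = 0.0875) and Socs3 1.93 (adjusted p = 0.0716). With only these groups in the fit no call remained, at adjusted p of 0.276 for Jak2, 0.21 for Irf9 and 0.132 for Socs3. Stat2 went from 1.72 (0.39 to 3.06, adjusted p = 0.0754) to -0.03 without replicate 2, and was 2.66 (adjusted p = 0.00444) and 2.54 (adjusted p = 0.00979) without replicate 1 or 3. Over all genes the calls at this dose were 856 higher and 644 lower, and 708 and 834 after quantile normalization, so the balance of directions depends on scaling.

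At 10 uM Stat2 in Adar1 KO was lower than in any NTC library, a reversal of the untreated order. The difference was -1.32 (-2.65 to 0.01, limma, adjusted p = 0.101), with an adjusted p of 9.38e-08 without Adar1 KO 0.4 uM replicate 2. Irf9 no longer separated the lines (0.25, -0.55 to 1.04, adjusted p = 0.637). Calls were 2 of 7 members (45.3% of all genes): Stat3 was lower in Adar1 KO by 0.93 (-0.93, adjusted p = 0.00181) and Jak2 higher by 1.11 (adjusted p = 0.0162). Jak2 was 1.05 (adjusted p = 0.053) and 0.99 (adjusted p = 0.0519) without NTC 10 uM replicate 2 or Adar1 KO 10 uM replicate 2. The comparisons of dose share the untreated libraries of their line, and those between lines share groups with them.

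Of the feedback genes only Socs3 could be tested, and it was not called for dose in either line. Socs3, which blocks gp130 receptors, was 0.57, 1.39 and 0.35 in untreated Adar1 KO, -0.51, 1.15 and 1.08 at 0.0006 uM, -0.03, 0.68 and 0.40 at 0.016 uM, 0.50, 2.91 and 1.00 at 0.4 uM, and 1.05, 0.81, 1.00 and 0.41 at 10 uM. In NTC it was 1.2, -0.72 and -0.98 untreated, -0.36, -0.71 and -0.11, then -0.34, -0.73, -0.73 and -2.78, then -2.23, -1.64, 0.07 and -0.91, and 0.27, -0.05 and -0.49 at 10 uM. Libraries at 10 uM overlapped untreated libraries in each line. Limma gave 0.05 in Adar1 KO (95% interval -1.22 to 1.31) and 0.08 in NTC (-1.27 to 1.43) at 10 uM. Socs1, which binds JAK1 and JAK2 directly, was at or below 3 counts in 31 of 33 baricitinib libraries and exceeded 1 CPM only in Adar1 KO 0.4 uM replicate 2 (0.49), so no fold change is given. Near that floor it was -2.21, -1.54 and -2.21 in untreated Adar1 KO and -2.78 in all untreated NTC libraries and all Adar1 KO libraries at 10 uM. Cish was also weak, at or below 3 counts in 21 of 33 libraries, with -0.30, -2.01 and -1.18 in untreated Adar1 KO, 1.52 in 0.4 uM replicate 2, and -1.61, -2.32, -1.84 and -1.40 at 10 uM.

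Across the 33 baricitinib libraries Stat2 and Irf9 moved together (r = 0.91), and Stat2 also with Stat3 (r = 0.80), while Stat2 gave 0.58 with Socs1 and 0.55 with Cish, both near the floor. Among 11133 genes the closest to Stat2 were Znfx1, Dtx3l and Trafd1 (r = 0.99 each), and to Irf9 Oas1a (0.99), Slfn8 and Usp18 (0.98 each), several of them known interferon-stimulated genes. Stat3 went instead with Plcg2 (0.95) and Junb (0.92), Jak2 with Prpf38a (0.94), and Jak1 with Sptlc2 (0.88). Socs3 was closest to Sap30 (0.77), and Cish to Ccl2 (0.83) and Ifnb1 (0.80), the latter partly through Adar1 KO 0.4 uM replicate 2 (0.73 and 0.68 without it). The nearest gene to Tyk2 reached only 0.59. The libraries differ in dose and line, and how much of these coefficients comes from that was not tested.

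Related genes show how wide the 10 uM effect was, with 65.8% of all genes called in Adar1 KO and 13.8% in NTC as the share to hold the counts against. Of 5 further JAK and STAT genes, 4 were lower in Adar1 KO at 10 uM, with Stat6 at -3.49 (limma, adjusted p = 5.04e-17) and Jak3 at -3.07 (adjusted p = 6.72e-08), and a median of -1.97 beside 0.05 over all genes. In NTC 3 of the 5 were lower, Stat5a at -1.09 (adjusted p = 0.000317), Stat5b at -0.94 (adjusted p = 6.62e-05) and Stat6 at -0.59 (adjusted p = 0.00772), so these fell in each line. Of 16 receptors tested, 7 were lower and 4 higher in Adar1 KO, among them Csf3r at -4.03 and Ifngr2 at 1.39, and 5 were lower in NTC (medians -0.29 and -0.33, beside 0.05 and 0.00). The negative regulator Usp18, an interferon-stimulated protease, was at -9.39 in Adar1 KO and -4.46 in NTC, within a list of 11 in which 4 were lower and 3 higher in Adar1 KO and 1 lower in NTC. Of 5 other SOCS genes 2 were higher and 1 lower in Adar1 KO, with Socs4 at 1.19, and 0 called in NTC (0 at an unadjusted p below 0.05). Of 5 STAT3 and STAT5 target genes 3 were lower in Adar1 KO, Bcl2l1 at -3.12, Junb at -2.92 and Osm at -2.80, and 0 in NTC (0 unadjusted).

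The 13 interferon-stimulated genes are among those the study displays and so are no independent list. They summed to 3710 to 4200 CPM in untreated Adar1 KO and 198 to 245 CPM in NTC, and 12 of 13 were higher in Adar1 KO (25.3% of all genes called, median 4.20 beside -0.02). At 10 uM the sums were 65.2 to 74.7 and 63.1 to 69.9 CPM, below untreated NTC in each line. At 0.4 uM the Adar1 KO libraries held 75.6, 34200 and 209 CPM, so replicate 2 had a higher sum of these genes than any untreated library. Limma called 12 of 13 lower at 10 uM in Adar1 KO (65.8% of all genes called, median -8.22 beside 0.05) and 3 of 13 in NTC (13.8%, median -2.31 beside 0.00).

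**Figure D2:**
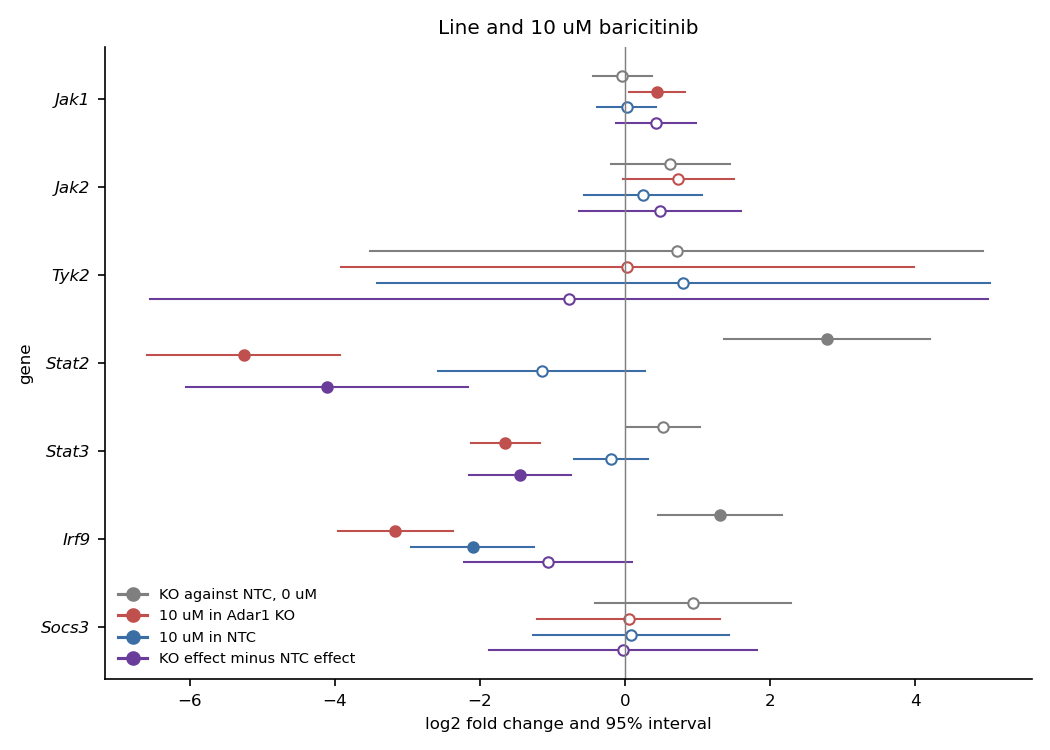
log2 fold changes of the 7 members tested, for Adar1 KO against NTC without drug, 10 uM against 0 uM in each line, and the difference between the lines, with 95% intervals and filled points where the adjusted p is below 0.05. The largest drops are those of Stat2 and Irf9 at 10 uM in Adar1 KO, and the intervals of Tyk2 span 0 throughout.

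The promoters of the members were read for 2 motifs on both strands: the interferon element ISRE, written GAAA, any 2 bases, GAAA, and a STAT site, written TTC, any 3 bases, GAA. Windows of 300 bases around each start site of RefSeq genes on build GRCm38.p6 gave 32851 windows, with an ISRE in 3.44% and a STAT site in 8.3%. All 9 members were matched, with 10 windows, and the 2 windows of Irf9 hold neither motif, which says only that these letters are not in these windows. Capitals below mark matches. Stat2 has an ISRE that begins 222 bases before the start (chr10:128270248-128270547, + strand), and Socs1 has overlapping ISREs at 83 and 77 bases before (chr16:10785487-10785786, - strand). A match is a description, not a site or a cause.
Stat2: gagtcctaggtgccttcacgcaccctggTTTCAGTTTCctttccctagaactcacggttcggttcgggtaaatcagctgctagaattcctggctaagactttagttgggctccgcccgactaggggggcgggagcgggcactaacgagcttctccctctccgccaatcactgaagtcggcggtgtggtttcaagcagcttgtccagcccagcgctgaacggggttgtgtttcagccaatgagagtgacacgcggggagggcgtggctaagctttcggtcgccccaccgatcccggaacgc
Socs1: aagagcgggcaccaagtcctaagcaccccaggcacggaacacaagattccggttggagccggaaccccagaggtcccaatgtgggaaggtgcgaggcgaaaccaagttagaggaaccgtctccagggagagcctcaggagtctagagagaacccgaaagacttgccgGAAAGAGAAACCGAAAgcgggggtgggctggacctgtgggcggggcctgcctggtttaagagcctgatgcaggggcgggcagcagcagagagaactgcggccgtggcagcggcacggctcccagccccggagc

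Without baricitinib and in the separate sequencing of the guide lines, no member was called between sgRNA 1 and NTC progenitors. Stat2 was 4.13, 2.91 and 3.00 with sgRNA 1 and 4.03, 2.18 and 3.17 in NTC progenitors, and Irf9 was 2.31, 2.07 and 2.09 against 2.67, 1.87 and 2.38. The groups overlapped for every member. Limma called 0 of 8 members tested (0 at an unadjusted p below 0.05), beside 0.936% of all genes, and 0 with the replicate number as a block. Differences were 0.21 for Stat2 (95% interval -0.69 to 1.12), -0.15 for Irf9 (-0.57 to 0.27), -0.04 for Jak1 (-0.27 to 0.18), 0.00 for Jak2 (-0.47 to 0.47), 0.19 for Stat3 (-0.28 to 0.67), 0.24 for Socs3 (-0.58 to 1.07) and 0.16 for Cish (-0.26 to 0.58). Tyk2 was -3.43, 1.04 and 0.34 against -0.19, 2.63 and 2.01 (-2.17, -5.18 to 0.84), lower with sgRNA 1 in each of the 3 replicate pairs.

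As macrophages, the same lines parted for Stat2 and Irf9. Stat2 was 8.11, 8.44 and 8.09 with sgRNA 1 and 5.72 and 5.69 in NTC, and Irf9 was 7.97, 7.79 and 7.57 against 6.41 and 6.28. All sgRNA 1 libraries were above both NTC libraries, and NTC replicate 2, not comparable by its scale, held 5.58 for Stat2 and 6.17 for Irf9. Limma gave 2.51 for Stat2 (adjusted p = 0.0026) and 1.43 for Irf9 (adjusted p = 0.000629), with 4 of 8 members called beside 21.8% of all genes (median 0.80 beside 0.05). Jak1, at 7.38, 7.48 and 7.42 against 6.85 and 7.16, was higher by 0.42 (adjusted p = 0.0223), by 0.39 (0.0773) without sgRNA 1 macrophage replicate 2, by 0.26 (0.23) without NTC macrophage replicate 1, by 0.28 (0.102) after quantile normalization, and by 0.42 (0.07) with only the groups compared. Jak2, at 4.45, 3.71 and 3.61 against 3.19 and 2.87, was higher by 0.89 (adjusted p = 0.0215), by 0.73 (0.13) without NTC macrophage replicate 3, and by 0.89 (0.0797) with only the groups compared.

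Stat3 differed by 0.67 in these macrophages (0.14 to 1.2, limma, adjusted p = 0.0718). It ran from 0.24 to 1.10 as each compared library was left out. The 1.10, without NTC macrophage replicate 3, rests on a lone NTC library. Socs3 overlapped between the lines at 0.69, -0.63 and -0.39 against -1.05 and -0.58, and Cish was low in both. Of the 13 interferon-stimulated genes all 13 were higher (21.8% of all genes called), with a median of 4.69 beside 0.05. Over all genes 1599 were higher and 802 lower (median 0.05), and after quantile normalization 1324 and 1311 (median -0.06), so the general excess of higher genes depends on scaling while Stat2 and Irf9 do not.

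**Figure D3:**
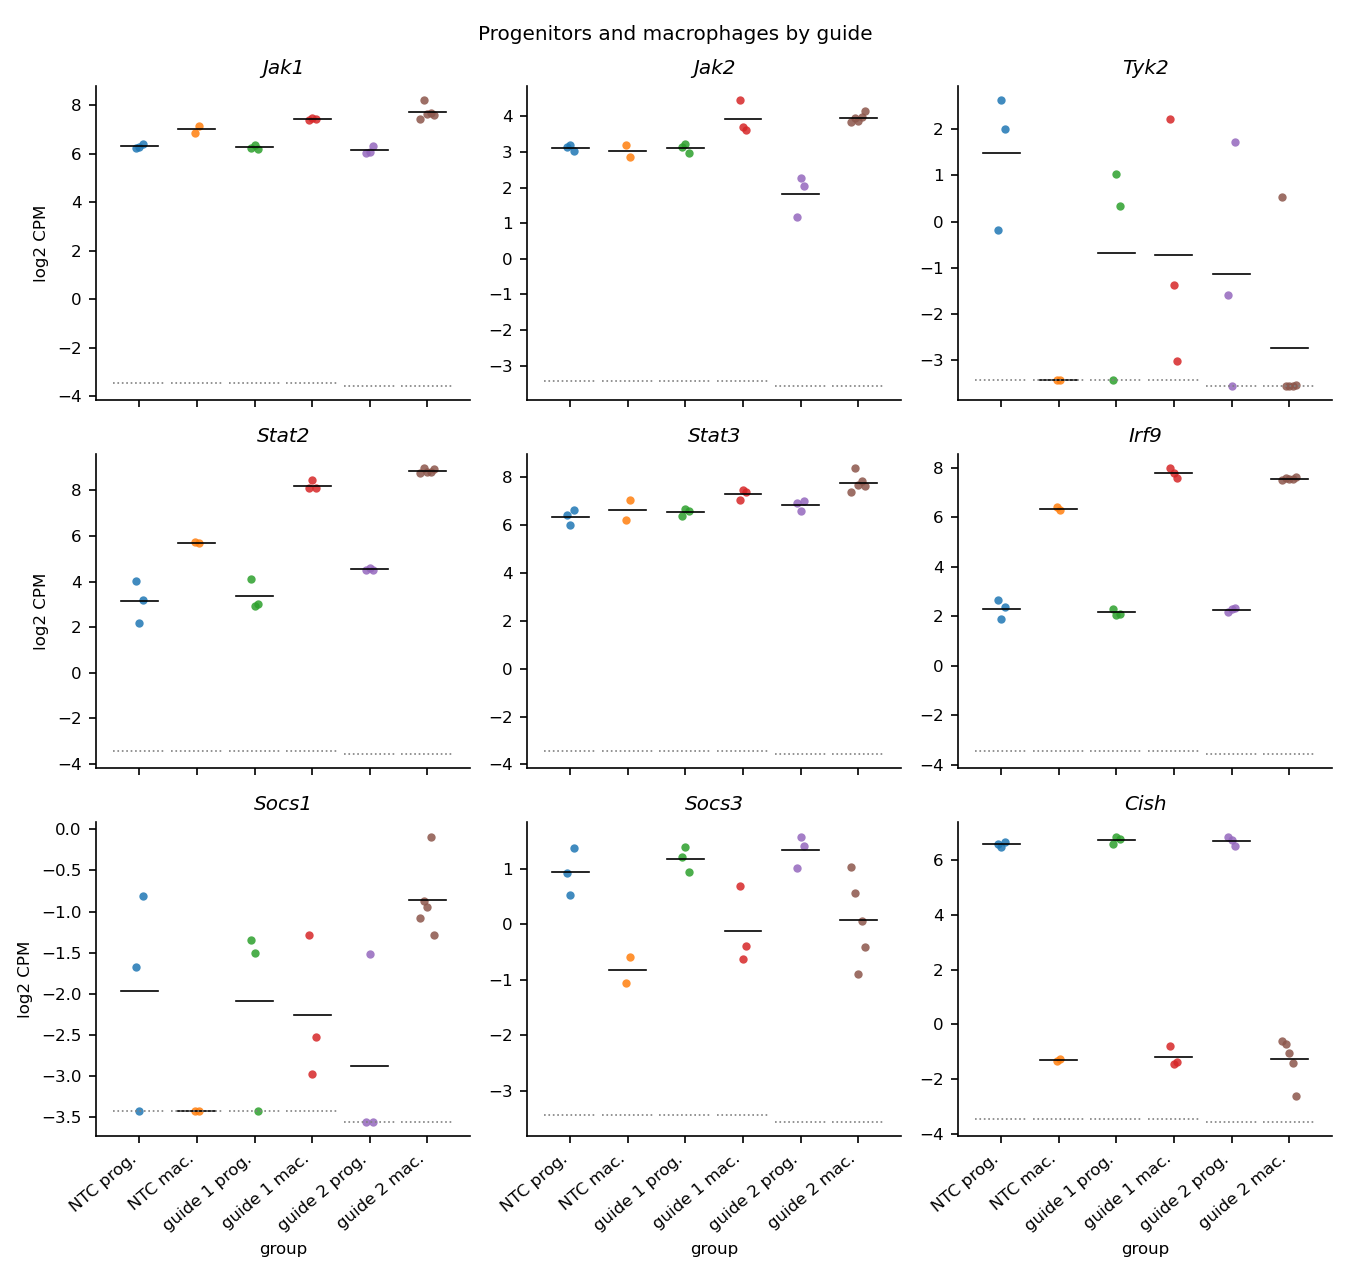
The 9 genes in progenitors and macrophages of the NTC, sgRNA 1 and sgRNA 2 lines, in log2 CPM, with each point a library, bars at means and dotted lines at the lowest value of the set. Cish is high in progenitors only, and Irf9 in macrophages only.

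Between progenitors and macrophages the largest change was that of Cish. Cish, a target of STAT5 under GM-CSF, was 6.57, 6.46 and 6.66 in NTC progenitors and -1.33 and -1.25 in macrophages, 6.58, 6.84 and 6.76 against -0.78, -1.46 and -1.37 with sgRNA 1, and 6.84, 6.71 and 6.50 against -0.59, -0.72, -1.06, -1.41 and -2.61 with sgRNA 2. No macrophage library came near any progenitor library. The log2 fold changes were -7.86 in NTC, -7.93 with sgRNA 1 and -7.96 with sgRNA 2. In each set Cish passed the filter through its progenitor libraries alone, so a difference was to be found and no p is given, and with sgRNA 2 it was not tested when any of the 3 progenitor libraries was left out. Progenitors grew in GM-CSF and macrophages in M-CSF, so medium and differentiation cannot be told apart here.

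Irf9 went the other way, from 2.17, 2.28 and 2.35 in sgRNA 2 progenitors to 7.50, 7.58, 7.56, 7.54 and 7.62 in macrophages, and it was higher in macrophages by 4.04 in NTC (limma, adjusted p = 1.56e-08), 5.62 with sgRNA 1 (adjusted p = 5.49e-10) and 5.30 with sgRNA 2 (adjusted p = 3.72e-13). Stat2 was 4.52, 4.59 and 4.50 in sgRNA 2 progenitors and 8.75, 8.96, 8.82, 8.81 and 8.94 in macrophages, and higher by 2.57 (adjusted p = 0.000364), 4.87 (7.11e-07) and 4.32 (9.23e-13) in the same order of lines. All macrophage libraries lay above all progenitor libraries for both genes in each line. Members called were 6 of 8 in NTC, 7 of 8 with sgRNA 1 and 7 of 7 with sgRNA 2, beside 71.8%, 71.3% and 81.3% of all genes, so a call is common here. Without Cish, which the filter let in through progenitors, they are 5 of 7, 6 of 7 and 6 of 6. These counts still hold Socs3 in each line and Tyk2 in NTC, which also passed the filter through progenitors. Apart from these, the members called were Jak1, Stat2 and Irf9 in NTC. With each Adar1 guide they were Jak1, Jak2, Stat2, Stat3 and Irf9. In medians the members gave 0.10, 0.78 and 1.56, beside -0.08, -0.06 and -0.03 over all genes. Without Cish the medians are 0.28 in NTC, 0.80 with sgRNA 1 and between 1.56 and 2.13 with sgRNA 2. Socs3, and Tyk2 where tested, are still in these medians.

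Jak1 was higher in macrophages by 0.69 in NTC (limma, adjusted p = 0.000184), 1.16 with sgRNA 1 (adjusted p = 9.82e-07) and 1.56 with sgRNA 2 (adjusted p = 4.57e-06). Jak2 was 1.16, 2.28 and 2.05 in sgRNA 2 progenitors and 3.85, 3.94, 3.87, 3.98 and 4.14 in macrophages (2.13, adjusted p = 7.85e-06), and was higher by 0.80 with sgRNA 1 (adjusted p = 0.00544), but overlapped in NTC (-0.09, 95% interval -0.61 to 0.44). Tyk2 was -0.19, 2.63 and 2.01 in NTC progenitors and at the lowest value in both NTC macrophage libraries. It exceeded 1 CPM in 5 of 11 libraries of the set, mostly progenitors. It passed the filter through these, so a difference was to be found and no p is given. Tyk2 was lower in NTC macrophages by 4.91 (-4.91), and at least 5.88-fold by a bound that covers counting error only. Given how Tyk2 varies between replicates elsewhere, that bound says little about the cell type. Stat3 was higher by 0.76 with sgRNA 1 (limma, adjusted p = 0.00801) and 0.94 with sgRNA 2 (adjusted p = 0.00111), and in NTC by 0.28 (-0.25 to 0.82, adjusted p = 0.31). The NTC value ran from -0.15 to 0.71 as each compared library was left out, so its direction depends on the libraries. The 0.71, without NTC macrophage replicate 1, rests on a lone macrophage library.

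Socs3 was lower in macrophages than in progenitors in each line. In sgRNA 2 cells it was 1.02, 1.58 and 1.42 in progenitors and 1.04, 0.57, -0.89, 0.06 and -0.40 in macrophages, with only macrophage replicate 1 reaching the progenitors. It was lower by 1.76 in NTC (-1.76), 1.30 with sgRNA 1 (-1.30) and 1.26 with sgRNA 2 (-1.26). Socs3 exceeded 1 CPM in 7 of 11 NTC and sgRNA 1 libraries and in 5 of 8 sgRNA 2 libraries, mostly progenitors. Without the progenitors it would not have passed the filter, so a difference was to be found and no p is given. The sgRNA 2 value was -1.14 and -1.22 without sgRNA 2 progenitor replicate 2 or 3, and -1.10 with the replicate block. It was not called in any of these. Socs1 was -3.56, -1.52 and -3.56 in sgRNA 2 progenitors and -1.08, -0.87, -0.95, -0.09 and -1.29 in macrophages, all above the progenitors but below the filter and not tested.

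The promoter windows of Socs3 (chr11:117969317-117969616, - strand) and Cish (chr9:107296409-107296708, + strand) on GRCm38.p6 each hold a STAT site. In Socs3 TTCTTAGAA begins 154 bases before the start, and in Cish TTCCTGGAA and TTCTTGGAA lie at the start site and just after it, with capitals marking the matches. Neither window has an ISRE.
Socs3: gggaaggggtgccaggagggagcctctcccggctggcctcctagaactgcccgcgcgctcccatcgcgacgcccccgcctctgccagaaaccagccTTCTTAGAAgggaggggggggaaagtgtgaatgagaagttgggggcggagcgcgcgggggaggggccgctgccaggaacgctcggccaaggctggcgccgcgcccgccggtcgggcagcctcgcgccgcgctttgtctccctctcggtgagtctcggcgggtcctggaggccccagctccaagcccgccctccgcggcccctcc
Cish: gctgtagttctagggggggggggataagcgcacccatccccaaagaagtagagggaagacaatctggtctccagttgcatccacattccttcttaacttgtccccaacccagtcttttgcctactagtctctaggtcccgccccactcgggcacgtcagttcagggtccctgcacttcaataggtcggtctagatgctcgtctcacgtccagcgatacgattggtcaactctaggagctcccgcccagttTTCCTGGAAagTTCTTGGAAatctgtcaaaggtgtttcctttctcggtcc

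In the untransduced ER-Hoxb8 cells Cish was again high in progenitors, apart from replicate 2. It was 7.50, -0.36 and 6.76 in ER-Hoxb8 progenitors, -1.82, 0.33 and -2.71 at day 4, 2.15, 1.40 and 1.51 in BM progenitors and -0.78, 0.71 and 0.25 in monocytes. The high libraries are ER-Hoxb8 progenitor replicates 1 and 3, and replicate 2 sits with the day 4 cells. From progenitor to day 4 limma gave -6.03 (95% interval -9.61 to -2.44, adjusted p = 0.497), and without replicate 2 the drop in Cish was -8.53 (adjusted p = 0.000118). Irf9, at 4.85, 5.81 and 2.53 in progenitors and 6.22, 5.81 and 6.22 at day 4, gave 1.69 (0.34 to 3.03, adjusted p = 0.497), and 2.39 (adjusted p = 0.0148) without replicate 2. With other libraries left out neither gene was called. Over all omissions Cish ran from -8.53 to -4.59 and Irf9 from 0.76 to 2.39. With all libraries limma called 0 of 8 members (2 at an unadjusted p below 0.05) and 0% of all genes.

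Socs3 was higher in ER-Hoxb8 progenitors, at 3.97, 0.27 and 0.03, than in BM progenitors, at -2.64, -3.87 and -3.43. No BM progenitor library reached an ER-Hoxb8 library, and 2 of the 3 were at or below 3 counts. Socs3 was the member called (4.74, limma, adjusted p = 0.00373), 1 of 8 beside 25.5% of all genes, with a median of 0.35 beside -0.08. The Socs3 value ran from 3.46 to 5.43 as each compared library was left out, with the call kept. Cish differed by 2.94 (-0.64 to 6.53, adjusted p = 0.214), and by 5.44 (adjusted p = 0.000561) without ER-Hoxb8 progenitor replicate 2. Irf9, at 5.47, 5.40 and 5.56 in BM progenitors, differed by -1.08 (-2.42 to 0.27), and by -1.78 (adjusted p = 0.0245) without that replicate. Jak2, at 4.73, 3.97 and 3.37 against 4.74, 4.92 and 4.64, differed by -0.75 (-1.48 to -0.02, adjusted p = 0.124), and by -1.10 (adjusted p = 0.0247) without ER-Hoxb8 progenitor replicate 1. Other libraries left out moved these values the other way. Over all omissions Cish ran from 1.51 to 5.44, Irf9 from -1.78 to -0.15 and Jak2 from -1.10 to -0.42. The ER-Hoxb8 progenitor libraries serve in this comparison and in the day 4 comparison. Marker sums differed too. The macrophage sum was 551 to 6530 CPM in ER-Hoxb8 and 182 to 319 CPM in BM progenitors, and the neutrophil sum 46.2 to 2770 and 6530 to 22500 CPM.

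Between monocytes and BM progenitors Jak1, Jak2, Stat2 and Stat3 overlapped, while Tyk2 did not. Stat2 was 6.25, 6.42 and 5.47 in monocytes and 5.65, 5.85 and 5.74 in progenitors. Irf9, at 6.42, 6.92 and 6.43, was above all BM progenitor libraries, with a difference of 1.11 (-0.23 to 2.46, limma, adjusted p = 0.247). Tyk2 was 2.86, 2.27 and 3.63 in monocytes and -4.34, 1.35 and -4.34 in progenitors (5.36, 0.83 to 9.89, adjusted p = 0.107), and Socs3 was -1.75, -0.62 and 0.43, above all progenitor libraries (2.66, 0.56 to 4.77, adjusted p = 0.0865). Limma called 0 of 8 members (2 at an unadjusted p below 0.05), beside 13.8% of all genes.

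**Figure D4:**
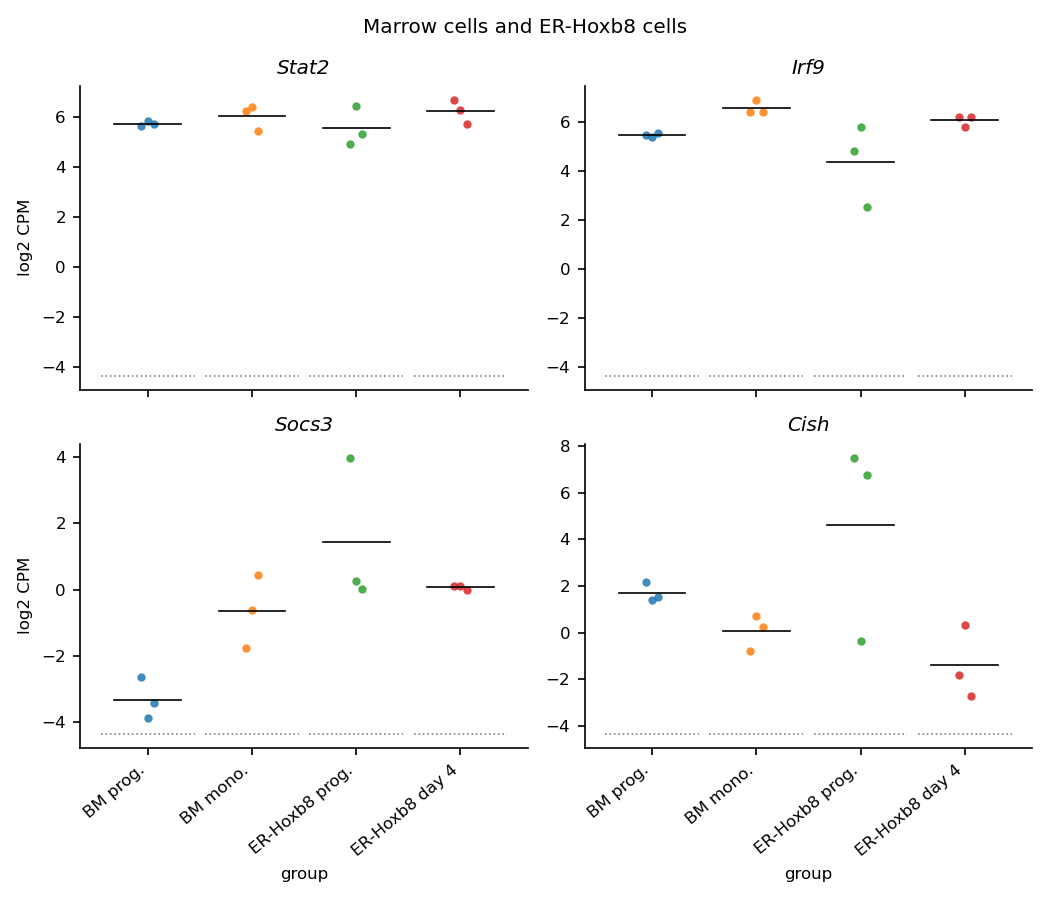
Stat2, Irf9, Socs3 and Cish in marrow cells and early ER-Hoxb8 cells, in log2 CPM, with each point a library, bars at means and dotted lines at the lowest value. An ER-Hoxb8 progenitor library without high Cish lies among the day 4 values.

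No member was called between BMD and ER-Hoxb8 macrophages in vitro. Stat2 was 5.69, 5.99 and 6.18 in BMD and 6.68, 6.73 and 5.06 in ER-Hoxb8 macrophages, Irf9 6.02, 5.54 and 6.20 against 6.32, 6.29 and 5.71, and the groups overlapped for all 9 members. Limma called 0 of 9 members (0 at an unadjusted p below 0.05), beside 1.96% of all genes. The 95% intervals were -1.28 to 1.68 for Stat2, -0.42 to 0.78 for Irf9, -0.67 to 0.99 for Jak1, -0.47 to 1.86 for Jak2 and -1.13 to 0.94 for Stat3. They were wider for Tyk2 (-4.17 to 5.84), Cish (-0.74 to 4.55), Socs3 (-2.95 to 1.66) and Socs1 (-2.51 to 1.58), so sizable differences are not out of range. BMD macrophage replicate 3 had low Jak2 (1.77, beside 4.18 and 4.11). Its library name starts with wBM and those of the others with Mac, and what these names stand for is not stated in the labels.

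In the brain ER-Hoxb8 MLCs had more Socs1 and Stat2 than BMD MLCs or microglia in every library. Socs1 was 3.73, 4.02, 4.10, 2.19, 3.49 and 2.84 in ER-Hoxb8 MLCs, from -3.62 through a median of -3.06 to 0.65 in BMD MLCs, and from -3.62 through -3.13 to 0.11 in microglia. ER-Hoxb8 macrophages in vitro held -3.15, -3.62 and -3.62, all at or below 3 counts. Every ER-Hoxb8 MLC library was above every library of the other groups. Socs1 was higher than in ER-Hoxb8 macrophages by a log2 fold change of 6.85, at least 41.3-fold by counting error alone, and by 5.77 than in BMD MLCs and 5.99 than in microglia. Socs1 passed the filter through these libraries, so no p is given, and with 3 of them alone it was not tested.

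Stat2 held 7.68, 6.25, 7.62, 6.50, 6.45 and 7.59 in ER-Hoxb8 MLCs, 5.31, 5.18, 1.24, 3.98, 5.05 and 3.94 in BMD MLCs, and from 3.07 through 3.82 to 5.03 in microglia. The ER-Hoxb8 MLCs were above all other brain libraries. Stat2 was higher by 2.90 than in BMD MLCs (limma, adjusted p = 0.000273) and by 3.21 than in microglia (adjusted p = 4.41e-06), and overlapped ER-Hoxb8 macrophages (0.86, 95% interval -0.42 to 2.14). Against BMD macrophages, BMD MLCs were lower by 1.84 (-1.84, adjusted p = 0.027), a call lost without BMD macrophage replicate 1, 2 or 3 (-1.97, -1.82 and -1.72, adjusted p = 0.0556, 0.0696 and 0.101) or with only the groups compared (adjusted p = 0.0692). Without BMD MLC replicate 3 that difference was -1.26, and the one between the MLC groups 2.33, with the calls kept. The 13 interferon-stimulated genes summed to 1390 to 4990 CPM in ER-Hoxb8 MLCs, 131 to 240 in BMD MLCs and 66.5 to 100 in microglia, with 12 of 13 higher than in BMD MLCs (15.2% of all genes called, median 3.82 beside -0.22).

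Irf9 was higher in both kinds of MLC than in microglia or their macrophages. It was 7.46, 7.44, 7.10, 6.65, 6.78 and 8.11 in ER-Hoxb8 MLCs, 6.76, 6.98, 6.59, 6.69, 7.13 and 6.97 in BMD MLCs, and 5.89 to 6.56 with a median of 6.13 in microglia. All MLC libraries were above all microglia. Irf9 was higher than in microglia by 1.13 in ER-Hoxb8 MLCs (limma, adjusted p = 3.3e-05) and 0.73 in BMD MLCs (adjusted p = 0.00595). Against macrophages it was higher by 1.15 (adjusted p = 0.00114) and 0.93 (adjusted p = 0.00708), the latter 0.74 (adjusted p = 0.0596) without BMD macrophage replicate 2. The MLCs overlapped each other (0.40, -0.02 to 0.83).

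Jak2 was 4.94, 5.09, 5.49, 6.40, 6.01 and 7.13 in ER-Hoxb8 MLCs, 3.96, 4.68, 4.59, 4.05, 4.52 and 4.81 in BMD MLCs, and from 3.35 through 4.30 to 4.85 in microglia. It was again highest in every ER-Hoxb8 MLC library. Jak2 was higher by 1.79 than in ER-Hoxb8 macrophages (limma, adjusted p = 0.00659), by 1.66 than in microglia (adjusted p = 0.000774) and by 1.41 than in BMD MLCs (adjusted p = 0.0173), the last 1.15 (adjusted p = 0.0504) without ER-Hoxb8 MLC replicate 6. With the libraries named GFPHox alone, an alternative chosen after seeing the data, the Jak2 call was lost in each of these comparisons. Jak1, Jak2 and Socs1 split the ER-Hoxb8 MLCs by library name without overlap. Jak2 was 4.94 to 5.49 in those named GFPHox and 6.01 to 7.13 in those named WTHox, and Socs1 3.73 to 4.10 and 2.19 to 3.49, so their group means join unlike libraries. Jak1 was 6.40, 6.41 and 6.47 in those named GFPHox and 8.16, 7.55 and 8.12 in those named WTHox with the suffix Lo, on either side of most BMD MLCs (7.06 to 7.81). What the names and the suffix stand for is not stated in the labels, so donor cells, sorting and host cannot be told apart.

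Socs3 was 5.32, 4.38, 5.37, 1.43, 3.39 and 6.78 in ER-Hoxb8 MLCs and 2.27, 1.90, 0.78, 1.98, 2.05 and 1.90 in BMD MLCs, and from -1.66 through 2.79 to 4.42 in microglia. ER-Hoxb8 MLC replicate 4 lay among the BMD MLCs, so the MLC groups overlapped, and ER-Hoxb8 macrophages, at -0.65, -0.17 and -1.77, were below all MLCs. Socs3 was higher in ER-Hoxb8 MLCs by 5.31 than in ER-Hoxb8 macrophages (limma, adjusted p = 0.000179) and by 2.63 than in BMD MLCs (adjusted p = 0.0245), the latter 2.43 (0.0505), 2.45 (0.0552) and 2.17 (0.0669) without BMD MLC replicate 3 or ER-Hoxb8 MLC replicate 3 or 6. The difference of 1.94 from microglia (adjusted p = 0.0389) gave 1.77, 1.96, 1.76 and 1.48 (adjusted p = 0.0806, 0.0554, 0.0852 and 0.129) without ER-Hoxb8 MLC replicate 1, 2, 3 or 6, and 1.86 and 1.42 (0.06 and 0.0502) without microglia replicate 5 or 8. No filter and only the groups compared lost it too (adjusted p = 0.0606 and 0.105). With the WTHox libraries alone, chosen after seeing the data, the Socs3 calls against BMD MLCs and against microglia were lost. BMD MLCs were above all BMD macrophages (-0.38, -0.78 and 0.51) with a difference of 2.03 (95% interval 0.03 to 4.02, adjusted p = 0.114).

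Cish was weak and uneven in the brain, at 1.24, -3.62, 2.47, 0.74, 2.77 and 2.13 in ER-Hoxb8 MLCs and from -3.62 through -0.62 to 0.13 in microglia. Apart from replicate 2, ER-Hoxb8 MLCs were above all microglia. The difference was 2.28 (limma, adjusted p = 0.0345), and 3.20 (adjusted p = 0.000869) without that replicate. It gave 2.23, 1.98, 1.92 and 2.05 (adjusted p = 0.0563, 0.0871, 0.0988 and 0.0798) without ER-Hoxb8 MLC replicate 1, 3, 5 or 6, and 2.00, 2.18 and 2.00 (0.0662, 0.0541 and 0.0539) without microglia replicate 4, 5 or 8. The Cish call was lost with no filter (adjusted p = 0.0586), with only the groups compared (0.0748) and with the replicate block (2.14, 0.0699). It was lost with the GFPHox libraries alone as well. Stat3 overlapped in all of these groups, from 6.65 through 7.70 to 8.32 in ER-Hoxb8 MLCs and 6.77 through 7.73 to 8.32 in microglia (0.02, 95% interval -0.65 to 0.69). Tyk2 had libraries at the lowest value in each brain group and others up to 4.49.

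In members called by limma, the brain comparisons gave 4 of 9 for ER-Hoxb8 MLCs against ER-Hoxb8 macrophages (34.8% of all genes), 6 of 9 against microglia (33.9%) and 4 of 9 against BMD MLCs (15.2%). For BMD MLCs they gave 2 of 9 against BMD macrophages (30.6%) and 1 of 9 against microglia (20.5%). Without Socs1, whose call the filter fixed, the counts for ER-Hoxb8 MLCs are 3 of 8, 5 of 8 and 3 of 8. Socs1 is among the 9 tested for BMD MLCs as well, but was not called there. Medians over the members were 1.00, 1.66, 0.72, 0.93 and 0.26 in this order, beside -0.15, -0.10, -0.22, -0.01 and 0.06 over all genes. Socs1 enters all of these medians. Without it the first 3 lie lower, between 0.86 and 1.00, 1.13 and 1.66, and 0.40 and 0.72. Those of BMD MLCs then lie between 0.93 and 1.08 and between 0.26 and 0.31. The comparisons share groups, and culture, brain, host and purity differ between them together.

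With a log2 fold change of 2 or more in size asked for beside the adjusted p, fewer members were called. Stat2 alone remained in Adar1 KO against NTC without drug (1 of 7, 3.87% of all genes), at 0.0006 uM (1 of 7, 5%) and in the difference between the lines (1 of 7, 7.11%), and Stat2 and Irf9 at 0.016 uM (2 of 7, 5.12%), Socs3 at 0.4 uM (1 of 7, 1.78%) and none at 10 uM (0 of 7, 3.14%). Against 0 uM, Adar1 KO kept 0 of 7 at the lower doses (0.0628%, 0.152% and 1.93%) and Stat2 and Irf9 at 10 uM (2 of 7, 14.7%), and NTC kept Irf9 at 10 uM (1 of 7, 0.834%). The sgRNA 1 line kept Stat2 in macrophages (1 of 8, 4.02%) and none in progenitors (0 of 8, 0.254%). Between macrophages and progenitors 4 of 8, 3 of 8 and 4 of 7 remained (23.5%, 21.6% and 19.3%), with Stat2 and Irf9 in every line, and without Cish, which the filter let in, 3 of 7, 2 of 7 and 3 of 6. The NTC count still holds Tyk2, which also passed the filter through progenitors. Marrow comparisons kept Socs3 for ER-Hoxb8 against BM progenitors (1 of 8, 15.3%) and none for monocytes (0 of 8, 6.84%). ER-Hoxb8 MLCs kept 2 of 9 against macrophages (19.3%), 3 of 9 against BMD MLCs (6.56%) and 3 of 9 against microglia (16.3%), or 1 of 8, 2 of 8 and 2 of 8 without Socs1, whose call the filter fixed. None remained for BMD MLCs against macrophages or microglia (15.9% and 10.7%) or between macrophages (1.85%).

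**Figure D5:**
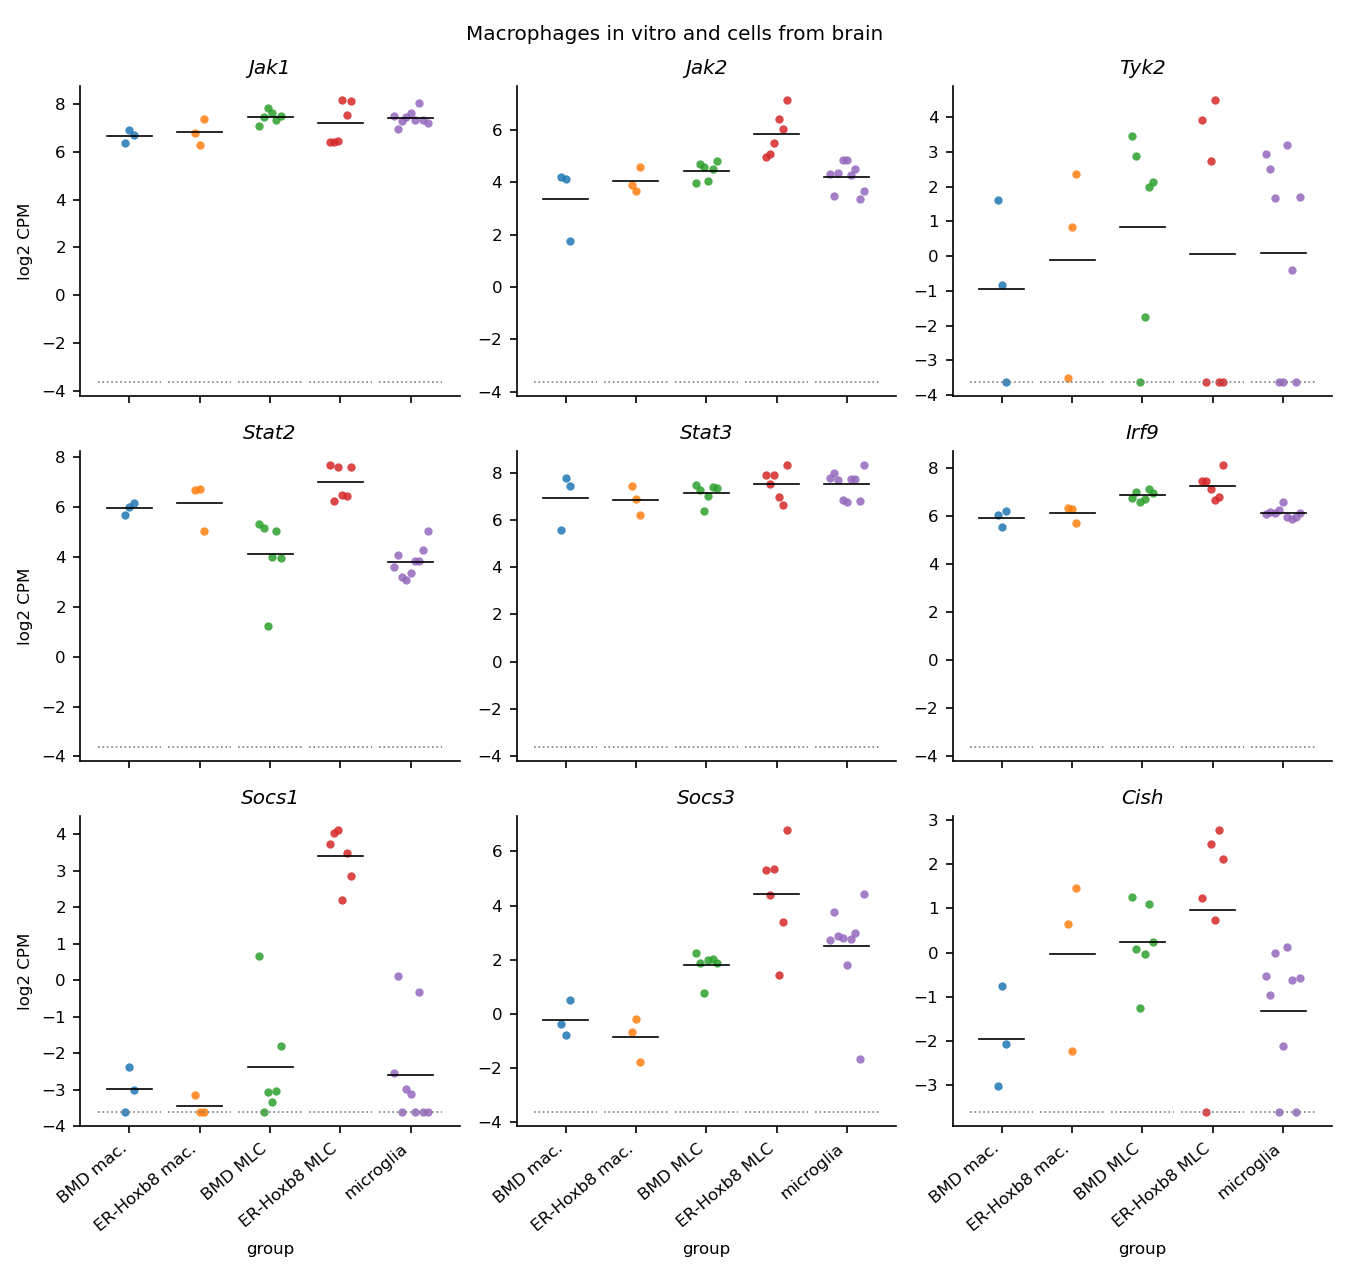
The members in in vitro macrophages, MLCs and microglia, in log2 CPM, with each point a library and the lowest value of the set marked. Socs1 is high only in ER-Hoxb8 MLCs.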

How the data were processed

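The deposited values are log2 CPM, which the authors made by pseudoalignment with kallisto 0.46.0 against GRCm39, import with tximport and TMM scaling with edgeR. The table holds 29957 genes, 1 of them without a name, and members were matched to 29956 names exactly. Libraries with a shared lowest value were taken as normalized together, and none were compared across such sets. CPM was recovered by subtracting the lowest value, and depth was estimated from it with a prior count of 2. Genome-wide tests used limma 3.58.1 in R 4.3.3 with moderated t and Benjamini-Hochberg adjustment, a fit for each set, and genes above 1 CPM in at least 3 libraries (6 for brain). Every adjusted p is from limma, called below 0.05. Replicate numbers were checked for pairing by correlation of residuals, which was above 0.1 in all pairs for sgRNA 1 against NTC progenitors and macrophages (2 pairs) and ER-Hoxb8 day 4 against progenitors, and not elsewhere. All tests are unpaired, with the replicate number as a block as an alternative. Alternatives were log2(CPM + 1), no filter, quantile normalization, a replicate block, only the groups compared, a larger fold, and leaving out each library. Those without Adar1 KO 0.4 uM replicate 2 or with the GFPHox or WTHox libraries alone were chosen after seeing the data. Members and lists were chosen by function with earlier results of these data known. Python 3.11.15, numpy 2.4.6, pandas 2.3.3 and matplotlib 3.10.9 were used for tables and plots. Promoter windows of 300 bases, most of them before the start, were read from RefSeq annotation. Levels of microglia markers are not reported here.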

Additional observations from a re-analysis of the deposited data

Results flagged for a closer look

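Among 70 groups and genes checked, 12 values lay far from all others of their group, and chance alone sets about 1 in 20 groups apart in this way. Tyk2 was 0.54 in sgRNA 2 macrophage replicate 1 (nearest other -3.55) and 0.78 in NTC 0.016 uM replicate 1 (nearest -2.76). All other libraries of these groups were at or below 3 counts for Tyk2, so the chance rate does not apply to these values. Stat2 was 1.24 in BMD MLC replicate 3 (nearest 3.94), Stat3 6.23 in NTC 0.016 uM replicate 4 (nearest 6.79), and Irf9 6.56 in microglia replicate 5 (nearest 6.23). Socs1 was -1.70 in NTC 0.016 uM replicate 1 and -2.22 in NTC 0.4 uM replicate 1, where the others were at -2.78, and these values are at or below 3 counts, so few reads set them and the chance rate does not apply. Socs3 was 0.78 in BMD MLC replicate 3 (nearest 1.90), -1.66 in microglia replicate 8 (nearest 1.81) and -2.78 in NTC 0.016 uM replicate 4 (nearest -0.73). Cish was -3.62 in ER-Hoxb8 MLC replicate 2 (nearest 0.74) and -2.15 in NTC 0.016 uM replicate 2 (nearest -2.78), the last at or below 3 counts beside tied values like those of Socs1, so the chance rate does not apply to it either. The effect of 10 uM baricitinib differed between the lines for Stat2 (-4.11, limma, adjusted p = 0.00122) and Stat3 (-1.45, adjusted p = 0.00143). Why was not tested.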

How the results depend on the processing

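No member called changed direction in any alternative. With a log2 fold change of 2 or more asked for, members called went from 2 to 1 for Adar1 KO against NTC without drug, 5 to 2 over the doses in Adar1 KO, 12 to 4 for the lines with drug, 2 to 1 for the difference between the lines, 4 to 1 for sgRNA 1 macrophages, 20 to 11 for macrophages against progenitors, and 17 to 8 in the brain set. Cish, which the filter let in through progenitors, is counted in each line before and after. Socs3 in each line and Tyk2 in NTC were let in the same way, and of these calls only that of Tyk2 stayed with the larger fold. Socs1, whose call the filter fixed, is counted before and after in each comparison of ER-Hoxb8 MLCs. For all of these a difference was to be found, so their place in these counts tests nothing. Without a filter the doses in Adar1 KO gave 3. With only the groups compared, the doses in NTC gave 4 in place of 1, sgRNA 1 macrophages 2 and the marrow set 3 in place of 1, and log2(CPM + 1) gave 2 in the marrow set. Quantile normalization lost 2 single calls and the replicate block 3, no filter 4 and only the groups compared 9. Leaving out a library at a time, over 91 fits, gave 1 to 3 for Adar1 KO against NTC, 3 to 7 over the doses in Adar1 KO (7 without 0.4 uM replicate 2), 1 to 3 over the doses in NTC and 1 to 5 in the marrow set (5 without ER-Hoxb8 progenitor replicate 2). Counts ranged over 11 to 13 for the lines with drug, 2 to 3 for the difference between the lines, 3 to 4 for sgRNA 1 macrophages, 18 to 21 for macrophages against progenitors and 13 to 17 in the brain set, and were 0 throughout for sgRNA 1 progenitors. Cish, Socs1, Socs3 and Tyk2 are again counted in these ranges where called, apart from Cish with sgRNA 2 when a progenitor library of that line was left out. The alternatives of GFPHox or WTHox libraries alone, chosen after seeing the data, gave 13 and 14 in the brain set, lost 4 (Jak2 in 3 comparisons and Cish against microglia) and 2 single calls (Socs3 against microglia and BMD MLCs), and had no value for Socs1, and only the groups compared gave none for Tyk2 in NTC or Socs3 in marrow progenitors. The cause of these shifts was not tested.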
